A study of Homo sapiens with 4 samples.

Results

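The hair keratin genes described here are 8 genes taken by name from 58735 listed genes: the type I hair keratins KRT34, KRT31, KRT33A and KRT33B, the type II hair keratins KRT81 and KRT86, and the keratin-associated protein genes KRTAP2-3 and KRTAP1-5. They were picked because hair keratin genes were seen to be higher with both compounds in these same libraries, so every value against control is a description and carries no test. The cells were OMM2.3, a human uveal melanoma cell line, and their RNA was sequenced in 4 libraries with 1 library in each group: cells given CCCP and DHA together (called the combination), cells given CCCP alone, cells given DHA alone, and untreated or vehicle-treated control cells, the labels not saying which. All cells were grown in medium with 10% fetal bovine serum. CCCP, a protonophore, collapses the proton gradient across the inner mitochondrial membrane. The labels leave DHA as an abbreviation, and the sources used here give neither doses nor times. All 8 genes had reads in every library. Of them, 6 reached 1 FPKM (reads per kilobase of exon, scaled by library size) in at least 1 library, the minimum for a gene to count as measured, and KRT33A and KRTAP1-5 did not.

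Keratins are the intermediate filament proteins of epithelial cells, and a filament is built from pairs of 1 acidic type I and 1 basic type II keratin. Hair keratins are the subset made in the cortex and cuticle of the hair shaft and in nails, where they are rich in cysteine and are crosslinked through disulfide bonds to small keratin-associated proteins. The type I genes and many keratin-associated genes lie in 1 cluster on the long arm of chromosome 17, and the type II genes lie in another on chromosome 12. In the hair follicle, HOXC13 and FOXN1 are transcription factors needed for hair keratin expression.

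Reads summed over genes ran between 16900411 in the combination and 18937286 in control, and mitochondrial genes held 3.85% of them in the combination, 5.09% with CCCP, 5.18% with DHA and 4.80% in control. With 1 library per group there is no spread between replicates, and the intervals in brackets are exact 95% intervals, or normal approximations for log2 departures, that cover counting error only. Lineage markers were sparse for a melanocytic line: 5 of 15 were measured, among them MITF and PMEL, and 6, including TYR, had 0 reads. Of 11 epithelial markers, the simple keratin genes KRT7, KRT8 and KRT18 were measured, and KRT5, KRT14 and ESRP1 had 0 reads. The 11 markers summed to 270 FPKM in the combination, 301 with CCCP, 348 with DHA and 379 in control. Of 10 fibroblast markers, 4 were measured (COL1A1, FAP, FBN1 and PDGFRB) and LUM and THY1 had 0 reads, and the 10 summed to 31.4, 49.8, 47.4 and 73.0 FPKM in the same order. The epithelial and fibroblast sums were lowest in the combination. The 15 lineage markers summed to 49.2, 55.2, 47.0 and 47.05 FPKM in the same order. The epithelial sum is mostly keratin, with KRT8 and KRT18 at 134 and 132 FPKM in the combination, so it is no separate measure beside keratin levels. The part of these sums in the keratin levels was not tested. None of 7 leukocyte or 5 endothelial markers was measured. In bulk RNA, fewer cells of a type and less RNA per cell cannot be told apart.

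The promoter windows of 300 bases run from 250 bases before to 50 bases after the RefSeq start. They are shown for the 4 type I hair keratin genes and for KRTAP2-3, which lies 317536 bases from KRT34. Of these chromosome 17 genes, KRT34, KRT33B and KRTAP2-3 took different courses across the libraries, and KRT33A had too few reads to show one. RefSeq windows (GRCh38.p14) matched 6 of the 8 genes, not KRT81 and KRT86. The windows lie on the minus strand of chromosome 17, at chr17:41382257-41382556 for KRT34, chr17:41397559-41397858 for KRT31, chr17:41350779-41351078 for KRT33A, chr17:41369764-41370063 for KRT33B and chr17:41060065-41060364 for KRTAP2-3. Capitals mark matches, on either strand, to 8 short motifs: the TATA-box motif TATAAA, the HOXC13-like core TTTATN (whose other strand also matches every TATAAA), the LEF1/TCF core CTTTGA, the AP-1 motif TGANTCA, the TEAD motif GGAATG, the C/EBP-ATF composite motif TGATGNAA, the AHR core GCGTG and the NRF2 core TGACNNNGC.
KRT34: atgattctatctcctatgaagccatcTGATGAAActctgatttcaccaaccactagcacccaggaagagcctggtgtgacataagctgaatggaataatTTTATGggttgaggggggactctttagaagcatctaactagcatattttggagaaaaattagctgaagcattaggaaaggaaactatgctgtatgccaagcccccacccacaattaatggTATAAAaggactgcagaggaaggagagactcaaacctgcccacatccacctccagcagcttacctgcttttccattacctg
KRT31: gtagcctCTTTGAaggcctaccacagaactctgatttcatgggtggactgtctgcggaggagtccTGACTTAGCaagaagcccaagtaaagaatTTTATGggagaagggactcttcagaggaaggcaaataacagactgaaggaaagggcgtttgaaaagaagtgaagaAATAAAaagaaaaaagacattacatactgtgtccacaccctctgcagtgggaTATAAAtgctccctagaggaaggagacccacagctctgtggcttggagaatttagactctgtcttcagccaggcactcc
KRT33A: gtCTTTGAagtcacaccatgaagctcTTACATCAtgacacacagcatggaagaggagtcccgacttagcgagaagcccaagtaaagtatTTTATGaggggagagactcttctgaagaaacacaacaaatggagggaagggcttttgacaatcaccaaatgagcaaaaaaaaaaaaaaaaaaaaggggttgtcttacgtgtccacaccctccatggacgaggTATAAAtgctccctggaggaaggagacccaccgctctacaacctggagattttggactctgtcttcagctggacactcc
KRT33B: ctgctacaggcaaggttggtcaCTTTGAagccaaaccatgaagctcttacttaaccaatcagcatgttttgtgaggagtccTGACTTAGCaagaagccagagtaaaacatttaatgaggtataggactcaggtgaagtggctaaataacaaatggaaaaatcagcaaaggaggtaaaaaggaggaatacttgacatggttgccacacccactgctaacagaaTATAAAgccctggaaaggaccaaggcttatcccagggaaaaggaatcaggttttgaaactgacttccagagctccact
KRTAP2-3: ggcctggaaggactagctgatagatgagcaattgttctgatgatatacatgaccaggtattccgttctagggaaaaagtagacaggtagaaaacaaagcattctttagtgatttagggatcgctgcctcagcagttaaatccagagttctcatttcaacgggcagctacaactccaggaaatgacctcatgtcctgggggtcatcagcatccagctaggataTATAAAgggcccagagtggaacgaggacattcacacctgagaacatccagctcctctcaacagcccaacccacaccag

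A TATAAA stood shortly before the start in each of these windows, 31 bases before it in KRT34, 29 in KRT31 and KRT33A, and 28 in KRT33B and KRTAP2-3, and in KRTAP1-5 matches stood 30 and 175 bases before it. Of 34796 promoter windows of the same length, 11.6% held this motif. A TTTATN away from any TATAAA was found in KRT34, KRT31 and KRT33A, and 34.9% of all windows held a TTTATN of either kind. CTTTGA was found in KRT31, KRT33A, KRT33B and KRTAP1-5, against 12.9% of all windows. TGATGNAA was found in KRT34 and KRT33A, 224 bases before the start in both and on opposite strands, against 3.63% of all windows. TGACNNNGC was found in KRT31 and KRT33B, against 13.3%. The AP-1 motif, the TEAD motif and the AHR core, held by 7.73, 14.0 and 36.4% of all windows, were in none of the 6. The matches are letters in these windows and show no binding.

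The type I windows were not equally alike. Aligned end to end, KRT31 and KRT33A were identical at 77.3% of 300 positions, and KRT33B matched KRT31 at 68.0% and KRT33A at 68.7%. KRT34 matched KRT31, KRT33A and KRT33B at 62.3, 62.0 and 63.3%, close to its 62.3% with KRTAP2-3, which is from another gene family. KRT31 and KRT33B shared a run of 26 bases, GAGGAGTCCTGACTTAGCAAGAAGCC, which starts 194 bases before the start of KRT31 and 178 before that of KRT33B. The longest run that KRT34 shared with KRT31 was 13 bases. The RefSeq start of KRT34 lies 97 bases downstream of its GENCODE 29 start, and those of the other 4 genes differ by at most 16 bases.

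KRT34 (ENSG00000131737, chromosome 17, 41377650 to 41382403 on GRCh38), a type I hair keratin of the shaft cortex, had by far the most reads among the 8 genes in the combination. Its level was 669 FPKM in the combination (20222 reads), 130 with CCCP (3801 reads), 156 with DHA (4704 reads) and 32.9 in control (1122 reads). The 3 treated libraries all lay above control and the combination stood well apart from the single compounds. By level it was the 41st highest of 22973 genes above 0 in the combination, 257th with CCCP, 202nd with DHA and 1090th in control. It took 0.12% of all reads in the combination and 0.00592% in control. Among 13678 measured genes, its ratio of the combination to control was the 4th highest on the log2(FPKM + 0.5) scale, which is the scale of the ratio ranks, list medians and 2-fold calls given here.

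The KRT34 ratio for each compound was of similar size with and without the other compound. The combination was 4.29-fold (4.16 to 4.43) above DHA alone, and CCCP alone was 3.95-fold (3.69 to 4.22) above control. The combination was 5.15-fold (4.97 to 5.33) above CCCP alone, and DHA alone was 4.74-fold (4.44 to 5.06) above control. The product of the 2 single ratios is 18.7, and the combination was 20.3-fold (19.1 to 21.6) above control, 1.09 times that product. On the log2 scale the departure from the product was 0.12, with a counting interval of 0.01 to 0.23, just above 0.

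KRT31 (ENSG00000094796, 41393724 to 41397592), the hair keratin gene next to KRT34 on the same strand, was also highest in the combination and lowest in control, at a much lower level. It stood at 25.1 FPKM in the combination, 6.19 with CCCP, 6.04 with DHA and 1.74 in control, on 691, 165, 166 and 54 reads. The 2 single compounds gave nearly equal levels, with overlapping counting intervals. The combination was 4.16-fold (3.50 to 4.95) above DHA alone and 4.05-fold (3.42 to 4.83) above CCCP alone. Against control it was 14.4-fold (10.9 to 19.4) higher, beside a product of single ratios of 12.4. The log2 departure of 0.22 had a counting interval of -0.28 to 0.73.

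**Figure D1:**
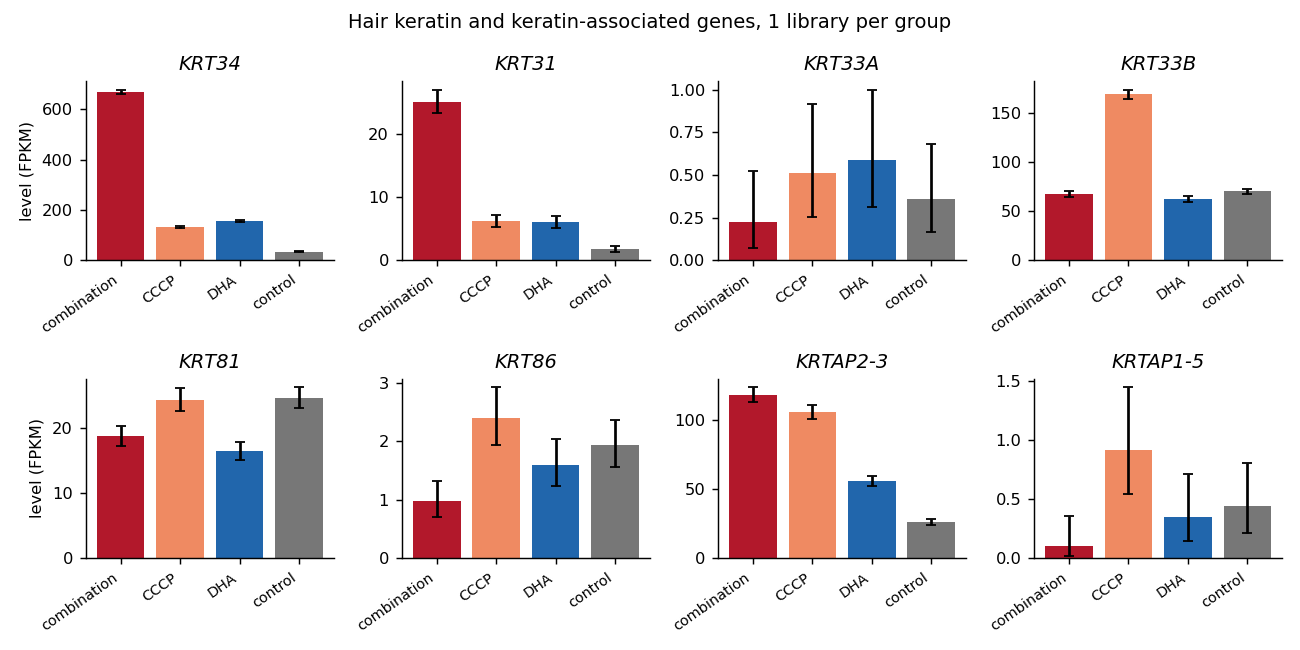
Level in FPKM (vertical axes, each from 0) of the 8 genes in the 4 libraries, with bars for single libraries and error bars for exact 95% Poisson intervals of the reads. KRT34 and KRT31 are highest in the combination, KRT33B is highest with CCCP alone, and KRT81 is between 16.4 and 24.6 FPKM in every library.

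The hair keratin genes share some sequence. Of the 50-base stretches in KRT31 transcripts, 14.2% also occur in another keratin gene, mostly KRT33B, and for KRT34 the share is 11.4%. With 100-base stretches the shares are 0.534 and 0.847%. KRT31 reads came to 3.42% of KRT34 reads in the combination, 4.34% with CCCP, 3.53% with DHA and 4.81% in control. The part of shared sequence in the KRT31 level was not tested. No exon of KRT34 or KRT31 overlaps an exon of another annotated gene.

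KRT33B (ENSG00000131738, 41363494 to 41369800), a type I hair keratin gene 7850 bases from KRT34, followed a different course. Its level was 67.1 FPKM in the combination, 169 with CCCP, 62.0 with DHA and 70.1 in control. The CCCP library alone was high and the other 3 lay close together. CCCP alone was 2.42-fold (2.30 to 2.54) above control, whereas the combination was 1.08-fold (1.01 to 1.16) above DHA alone. DHA alone was 1.13-fold (1.06 to 1.21) below control, and the combination was 2.52-fold (2.39 to 2.67) below CCCP alone. The combination thus stood at 0.448 times the product of the single ratios, a log2 departure of -1.16 (-1.28 to -1.04).

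KRT33A (ENSG00000006059, 41346092 to 41350812), the close relative of KRT33B and 12682 bases from it, was barely detected, with 5 reads in the combination, 11 with CCCP, 13 with DHA and 9 in control. Its levels of 0.225, 0.512, 0.586 and 0.359 FPKM in the same order have intervals of the ratios to control that all include 1. KRT33B was 298, 331, 106 and 195 times as high as KRT33A per length in the 4 libraries. Of the 50-base stretches of KRT33A, 27.5% also occur in another keratin gene, chiefly KRT33B, so its few reads are uncertain.

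KRTAP2-3 (ENSG00000212724, 41059240 to 41060114), which encodes a small cysteine-rich protein of the hair shaft matrix, was higher with either compound but did not add up as KRT34 did. It stood at 118 FPKM in the combination, 105 with CCCP, 55.4 with DHA and 25.9 in control. The combination and CCCP alone were the 2 high libraries, with a ratio of 1.12 (1.04 to 1.20), and DHA lay between them and control. The combination was 2.13-fold (1.96 to 2.32) above DHA alone, whereas CCCP alone was 4.07-fold (3.66 to 4.54) above control. The combination was 4.56-fold (4.10 to 5.07) above control beside a product of 8.71, a log2 departure of -0.94 (-1.13 to -0.74).

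KRTAP2-4, the near copy 5002 bases away, showed the same course at 12.9 FPKM in the combination, 11.7 with CCCP, 8.36 with DHA and 3.83 in control. Its ratios to control were 3.36 (2.48 to 4.62) in the combination, 3.05 (2.23 to 4.21) with CCCP and 2.18 (1.57 to 3.06) with DHA. The 2 genes share much of their sequence: 34.0% of the 100-base stretches of KRTAP2-3 also occur in KRTAP2-4, and 39.7% of those of KRTAP2-4 occur in KRTAP2-3. Their separate levels are therefore uncertain. KRTAP1-5 (ENSG00000221852, 41026026 to 41027202), another gene of this family, had 2 reads in the combination, 18 with CCCP, 7 with DHA and 10 in control. The combination was 9.30-fold (2.23 to 82.6) below CCCP alone, and the intervals of its 3 ratios to control include 1.

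KRT81 (ENSG00000205426, chromosome 12, 52285913 to 52291534), the main type II hair keratin gene in these cells, was not above control in any treated library. Its level was 18.7 FPKM in the combination, 24.3 with CCCP, 16.4 with DHA and 24.6 in control. The 2 libraries with DHA were the lower ones. DHA alone was 1.5-fold (1.35 to 1.67) below control, the combination was 1.32-fold (1.19 to 1.46) below control, and the ratio of CCCP alone to control was 0.987 (0.897 to 1.09).

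KRT86 (ENSG00000170442, 52249300 to 52309163), another type II hair keratin gene, stood at 0.968 FPKM in the combination, 2.40 with CCCP, 1.60 with DHA and 1.93 in control, on 40 to 96 reads. The combination was the lowest library, 1.995-fold (1.36 to 2.97) below control, short of 2-fold with or without the pseudocount. It was also 2.48-fold (1.70 to 3.68) below CCCP alone. The ratios of the single compounds to control were 1.24 (0.922 to 1.68) for CCCP and 0.828 (0.594 to 1.15) for DHA. KRT86 encloses KRT81 on the opposite strand without sharing its exons, but 23.5% of its 100-base stretches also occur in KRT81, and 28.8% of those of KRT81 occur in KRT86. The split of reads between the 2 genes is thus uncertain. KRT86 also has 206 exon bases, 8.61% of its length, in common with exons of other genes. These are AC021066.1 and AC121757.1 on the opposite strand and AC021066.3 on the same strand. Reads there cannot be told apart by gene. Of 27 protein-coding genes of the type II cluster, 10 had reads and 6 were measured. None of the 6 was at least 2-fold above or below control in any treated library. Over all measured genes those shares ran from 1.86 to 5.44%.

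**Figure D2:**
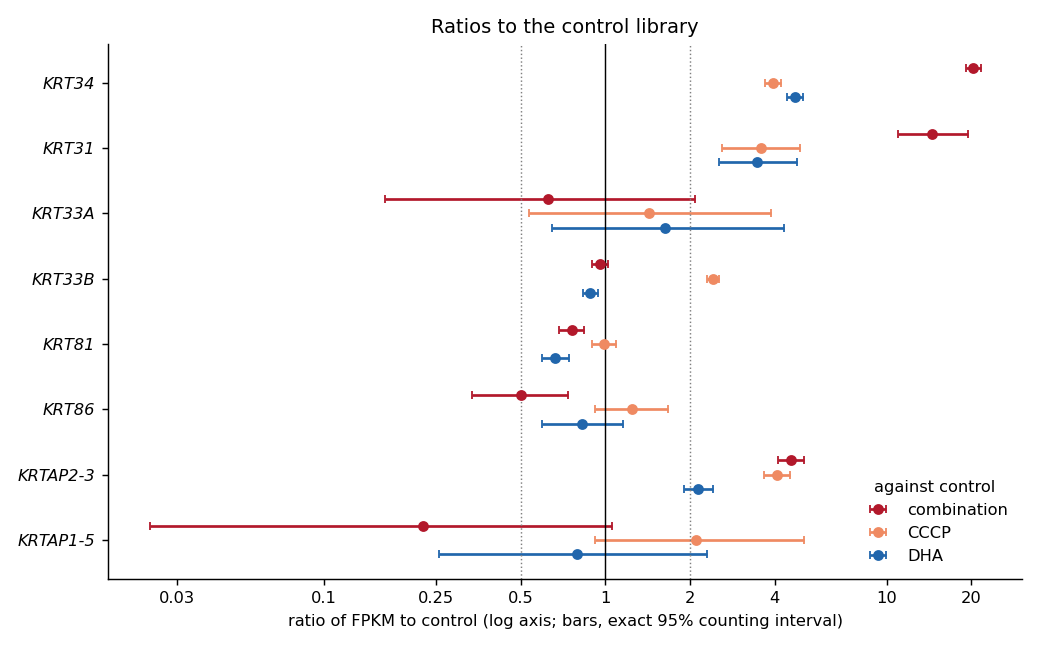
Ratio of FPKM to control (horizontal log axis) for the 8 genes with the combination, CCCP alone and DHA alone; points are ratios of 2 libraries, bars are exact 95% counting intervals, and dotted lines mark 2-fold. KRT34, KRT31 and KRTAP2-3 lie to the right of 1 in all 3 comparisons, and KRT33B only with CCCP alone.

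The 8 genes thus did not move as 1 group, and the picture of hair keratins higher with both compounds held for KRT34, KRT31 and KRTAP2-3 alone. The size rule was 2-fold in either direction. In the combination against control, 3 of the 6 measured genes were at least 2-fold higher, beside 4.52% of all measured genes, and none was at least 2-fold lower, beside 5.44%. With CCCP alone 4 of 6 were higher, beside 3.21%, and none lower, beside 2.32%. With DHA alone 3 of 6 were higher, beside 2.0%, and none lower, beside 1.86%. Because the genes were chosen on these contrasts, nothing is read from those counts. In the combination against CCCP alone, 2 of 6 were at least 2-fold higher, beside 3.46%, and KRT33B was at least 2-fold lower, beside 4.94%. In the combination against DHA alone, 3 of 6 were higher, beside 3.27%, and none lower, beside 3.63%. The last 2 comparisons share the combination library with the first. The median log2 ratio of the 6 genes to control was 1.05 in the combination, 1.42 with CCCP and 0.45 with DHA, and that of all measured genes was 0.01, 0 and 0.

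**Figure D3:**
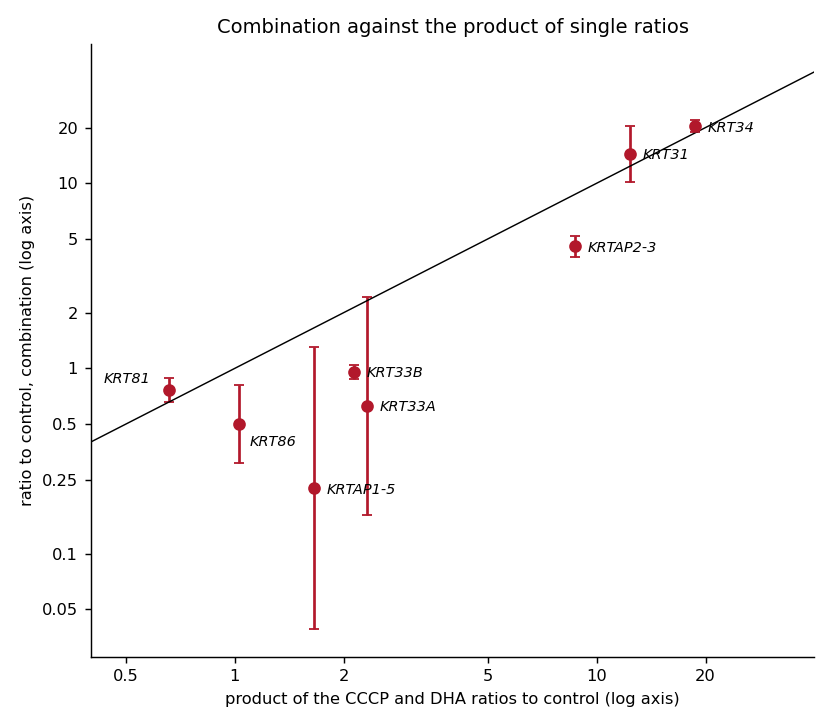
Ratio of the combination to control (vertical log axis) against the product of the CCCP and DHA ratios to control (horizontal log axis) for the 8 genes; the line marks equality and bars are 95% counting intervals of the departure. KRT34 and KRT31 lie on or near the line, and KRTAP2-3 and KRT33B lie below it at 0.523 and 0.448 times the product.

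The departures from the product of single ratios separated the genes as well. KRT34 and KRT31 were at 1.09 and 1.17 times the product and KRT81 at 1.16 times, with a counting interval of the log2 departure of KRT81 that includes 0. KRTAP2-3, KRT33B and KRT86 were at 0.523, 0.448 and 0.487 times, and all 3 intervals lie below 0. KRTAP2-4, from the same subfamily as KRTAP2-3, was at 0.507 times its product of 6.64. KRT33A and KRTAP1-5 were at 0.27 and 0.136 times on few reads, with log2 departures of -1.89 and -2.88 that were -0.82 and -1.09 with the pseudocount of 0.5 FPKM. These departures come from 4 libraries without replicates, so their spread between cultures is unknown.

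Along the type I cluster, 57 protein-coding genes lie between KRT10 and KRT17, of which 31 had reads and 11 were measured. Of the 11, 4 were at least 2-fold higher than control in the combination (KRTAP2-3, KRTAP2-4, KRT34 and KRT31), beside 4.52% of all measured genes. At least 2-fold lower were 3 (KRT38, KRT32 and KRT13), beside 5.44%, and KRT38 reached 1 FPKM in control alone. With CCCP alone 6 were higher, beside 3.21%, and none lower, beside 2.32%, KRT33B and KRT16 joining the same 4 genes. With DHA alone those 4 were higher, beside 2.0%, and KRT13 was lower, beside 1.86%. The log2 ratio of KRT13 was -1.03 with DHA alone and -0.995 with CCCP alone, just short of the call. KRTAP2-3, KRT34, KRT31 and KRT33B are among the 8 chosen genes, so nothing is read from these counts. KRT34 and KRT31 were thus flanked by genes with other courses, KRT33B on one side and KRT37 and KRT38 on the other.

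The hair keratin genes beyond KRT31 were scarce, and KRT37, KRT38 and KRT32 were lowest in the combination. KRT35 and KRT36 had at most 8 reads in any library. KRT37, 23161 bases from KRT31, had 4 reads in the combination, 20 with CCCP, 11 with DHA and 24 in control. KRT38 had 7, 33, 25 and 59 reads in the same order, and was 7.47-fold (3.41 to 19.4) lower in the combination than in control. KRT32, a cuticle keratin gene, had 11, 109, 35 and 67 reads. CCCP alone was 1.90-fold (1.39 to 2.61) above control for KRT32, whereas the combination was 5.40-fold (2.83 to 11.3) below control. KRT13, a keratin gene of mucosal epithelium, stood at 0.199 FPKM in the combination, 2.10 with CCCP, 2.03 with DHA and 4.67 in control, and the combination was 23.5-fold (12.6 to 49.6) below control. KRT16, a keratin gene induced in wounded skin, shared the course of KRT33B, with 1.31 FPKM in the combination, 3.17 with CCCP, 1.15 with DHA and 1.14 in control.

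**Figure D4:**
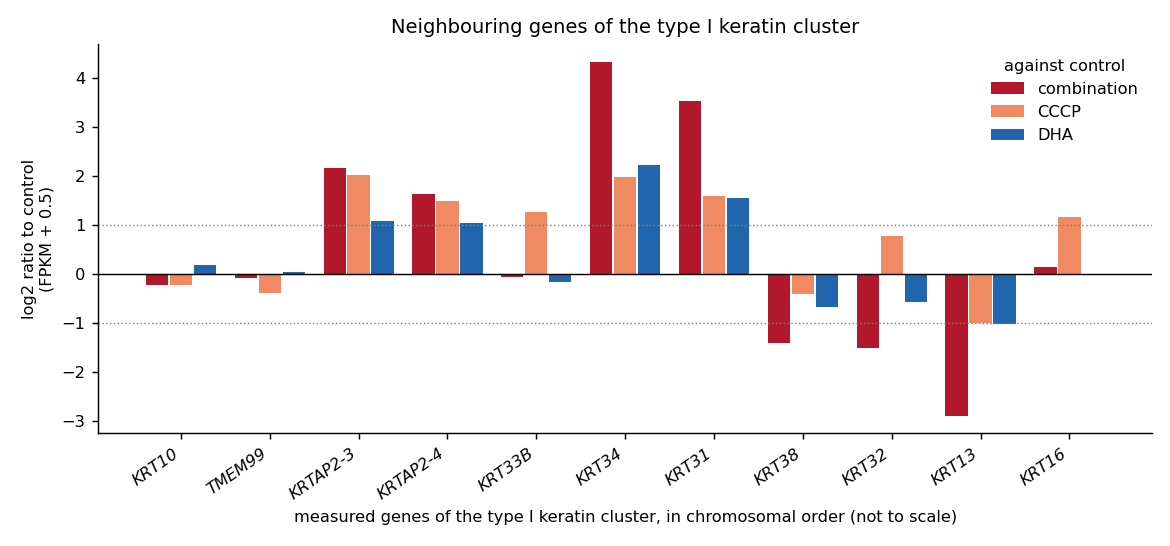
Log2 ratio of FPKM + 0.5 to control (vertical axis) for the 11 measured genes of the type I keratin cluster, in chromosomal order but not to scale, with bars for the combination, CCCP alone and DHA alone and dotted lines at 2-fold. The combination bars reach 4.33 for KRT34 and 3.52 for KRT31 and fall to -1.42 for KRT38, -1.51 for KRT32 and -2.89 for KRT13.

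Summed over the 11 type I hair keratin genes, the level was 762 FPKM in the combination, 312 with CCCP, 227 with DHA and 109 in control. KRT34 made up 87.8% of this sum in the combination, 41.7% with CCCP, 68.7% with DHA and 30.1% in control. KRT33B held 8.81, 54.3, 27.3 and 64.1% in the same order, so it led in control and with CCCP alone, and KRT34 led in the 2 libraries with DHA. The 6 type II hair keratin genes summed to 19.7 FPKM in the combination, 26.8 with CCCP, 18.1 with DHA and 26.6 in control. KRT81 held at least 90.3% of that in each library.

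Over all keratin genes the balance of the types differed between libraries: the type I sum was above the type II sum in the combination and with CCCP, close to it with DHA and below it in control. The 28 type I genes listed summed to 906 FPKM in the combination, 461 with CCCP, 408 with DHA and 307 in control, and KRT34 was 73.9% of the sum in the combination and 10.7% in control. In control and with DHA alone the highest type I gene was KRT18, the simple epithelial keratin, at 180 and 165 FPKM. The 26 type II genes summed to 388 FPKM in the combination, 376 with CCCP, 399 with DHA and 433 in control, most of it KRT80 and KRT8. KRT80 stood at 230, 183, 198 and 208 FPKM and KRT8 at 134, 164, 179 and 195 FPKM in the same order. Each gene's length here is that of its exons over all annotated transcripts, so levels of different genes are compared only roughly.

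**Figure D5:**
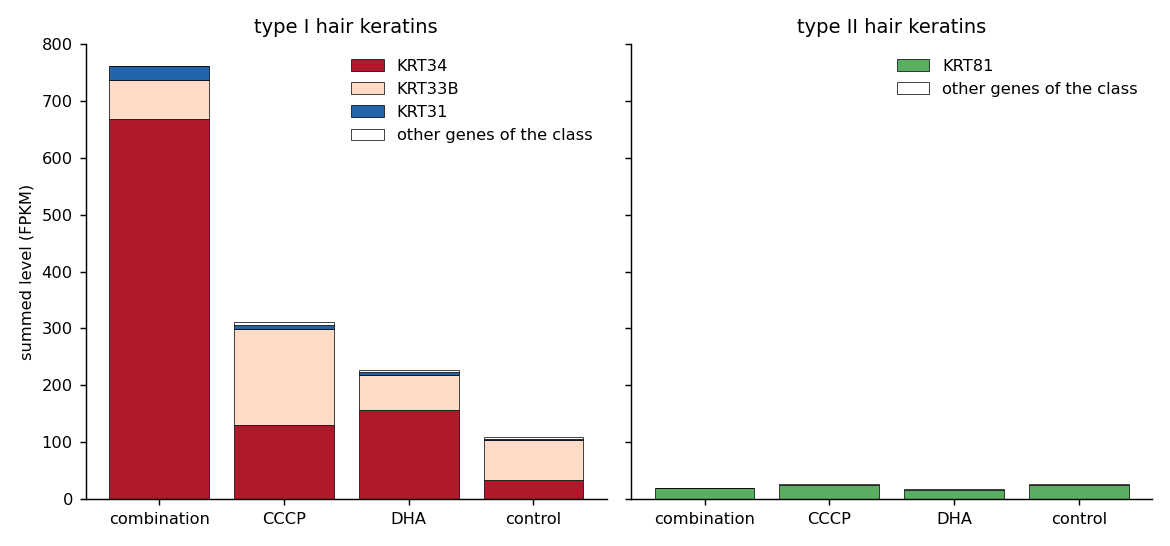
Summed level in FPKM (vertical axis, from 0) of the type I and the type II hair keratin genes in the 4 libraries, 1 library per bar, divided by gene. The type I sum is 762 FPKM in the combination and 109 in control, while the type II sum lies between 18.1 and 26.8 FPKM.

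Among wider gene families, the higher levels were limited to few genes. Of 11 type I hair keratin genes, 10 had reads and 5 were measured. In the combination 2 of these were at least 2-fold higher and 2 at least 2-fold lower than control, with a median log2 ratio of -0.06. With CCCP 3 and with DHA 2 were higher and none lower. Over all measured genes 4.52% were higher and 5.44% lower in the combination, 3.21 and 2.32% with CCCP, and 2.0 and 1.86% with DHA. KRT34, KRT31 and KRT33B were among the 8 chosen genes, so nothing is read from these counts. Of 94 keratin-associated protein genes, 14 had reads and only KRTAP2-3 and KRTAP2-4 were measured. All 8 keratin genes of the inner root sheath had 0 reads, which allows up to 3 reads in each library. Of 6 type II hair keratin genes, 3 had reads and KRT81 and KRT86 were measured. Of 25 epidermal keratin genes, KRT10, KRT13, KRT16 and KRT80 were measured. KRT13 was at least 2-fold lower in the combination and with DHA, and KRT16 at least 2-fold higher with CCCP. With CCCP, KRT13 fell just short of the call, at a log2 ratio of -0.995 beside -1.03 with DHA. Without the pseudocount KRT13 was 2.23-fold (1.77 to 2.83) lower with CCCP and 2.3-fold (1.82 to 2.92) lower with DHA. The 3 measured simple epithelial keratin genes had median log2 ratios to control of -0.44 in the combination, -0.33 with CCCP and -0.12 with DHA, and none of them was at least 2-fold higher or lower.

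Of the follicle's regulators of hair keratins, the defining ones were not detected. HOXC13 and FOXN1 had 0 reads in all 4 libraries. LEF1, a transcription factor of the Wnt pathway active in the hair matrix, stood at 1.28 FPKM in the combination, 1.12 with CCCP, 1.16 with DHA and 1.24 in control. Of 21 genes listed as regulators or partners in the hair matrix and cortex, 10 were measured. None of the 10 was at least 2-fold higher than control in any treated library on the log2(FPKM + 0.5) scale. Over all measured genes the shares were 4.52% in the combination, 3.21% with CCCP and 2.0% with DHA, so nothing is read from that count. In the combination 6 of the 10 lay above control. MSX1, a homeobox factor gene of the hair matrix, was 2.06-fold (1.58 to 2.69) higher there without the pseudocount, TGM1, a transglutaminase gene, 1.83-fold (1.49 to 2.24) and VDR, the vitamin D receptor gene, 1.81-fold (1.5 to 2.19). SOX9, a factor of follicle stem cells, and PADI3, which converts arginine to citrulline in hair proteins, were at least 2-fold lower in the combination. Over all measured genes the share lower was 5.44%. SOX9 stood at 9.35 FPKM in the combination, 10.2 with CCCP, 22.3 with DHA and 28.1 in control. PADI3 was 5.76-fold (3.39 to 10.5) lower in the combination without the pseudocount. The median log2 ratios of the 10 genes to control were 0.12 in the combination, -0.07 with CCCP and -0.21 with DHA.

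Genes that anchor keratin filaments at cell junctions lay on both sides of control. Of 16 desmosome and linker genes 10 were measured, with median log2 ratios to control of 0.07 in the combination, 0.09 with CCCP and 0.07 with DHA. In the combination 5 lay above and 5 below control. None was at least 2-fold higher there, beside 4.52% of all measured genes, and only periplakin (PPL) was at least 2-fold lower, beside 5.44%. PPL was 2.39-fold (2.0 to 2.86) lower in the combination, though 1.56-fold (1.38 to 1.77) higher with CCCP alone. JUP, the plakoglobin gene, was 1.87-fold (1.72 to 2.03) lower in the combination, and the linker gene DST was 1.5-fold (1.44 to 1.57) higher with CCCP alone. All 6 measured intermediate filament genes of other classes lay below control in the combination, with a median of -0.94. Of them 3, LMNB1, LMNB2 and NES, were at least 2-fold lower, beside 5.44% of all measured genes. VIM, the mesenchymal filament gene, was 1.30-fold (1.29 to 1.32) lower in the combination. KRT34, at 20.3-fold higher, thus differed in direction from each of these 6 filament genes, but not from the 5 linker genes above control.

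The genes most like KRT34 were sought over 6755 genes averaging 5 FPKM or more, by distance over the 3 log2 ratios to control. The average includes the combination, so a gene high in that library alone could pass. Genes were picked on these same ratios, so their likeness is a description and no test. KRT31 stood at a distance of 1.13, KRTAP2-3 at 2.44 and KRT33B at 5.05. The nearest gene outside the 8 was LURAP1L at 0.992, with 39.5 FPKM in the combination, 4.94 with CCCP, 4.79 with DHA and 1.52 in control. SLC7A11, the cystine transporter gene, followed at 1.52, TRIB3, a pseudokinase gene, at 1.53, CTH, an enzyme gene of cysteine synthesis, at 1.57, and PTX3, a secreted pattern recognition gene, at 1.74. The sixth, the pseudogene AC005326.1 at 1.81, rests on 3 reads in control. LURAP1L, PTX3 and AC005326.1 exceeded 5 FPKM in the combination alone. For KRT31 the nearest were LURAP1L at 0.821, AC005326.1, CTH, SLC7A11 and TRIB3, and NQO1, a quinone reductase gene, was the sixth at 1.21. With CCCP alone KRT34 was 3.95-fold above control. LURAP1L, SLC7A11, TRIB3, CTH, PTX3 and AC005326.1 were 3.255-, 1.72-, 1.56-, 1.91-, 2.045- and 2.33-fold above control. With DHA alone KRT34 was 4.74-fold above control, and the same 6 genes were 3.156-, 4.54-, 3.48-, 4.77-, 2.31- and 3.765-fold above it.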

How the data were processed

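The TruSeq RNA kit was used on 1 ug of total RNA, per the labels' protocols. The deposited values are FPKM for 58735 genes in each of 4 libraries, per the file headers. The aligner, counter and build used by the authors were not given in the sources used here. Every gene identifier was found in GENCODE 29 (GRCh38), the source of coordinates and exon lengths.

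Multiplying FPKM by exon length recovered whole reads for every gene above 0, to within 0.01 reads. These served for depth and intervals. Library sizes implied by the deposited values and summed reads were within 2.78% of each other. Ratio intervals are exact Clopper-Pearson intervals, and those of departures from the product of single ratios are normal approximations from the reads. Reads without molecular identifiers are not independent molecules, so intervals cover counting error only.

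Calls used log2(FPKM + 0.5) and a 2-fold rule over the 13678 genes that reached 1 FPKM in any library. The pseudocount understates the change of low genes. No test was run, since each group has 1 library and the genes were chosen on these values. The script for ratios and intervals was tested on simulated data. Genes and lists were chosen with earlier results of these data known. Named genes were the 8 genes, measured genes of 9 lists, hair keratin and keratin-associated genes with at least 10 reads over the 4 libraries, cluster neighbours, and the 6 genes nearest KRT34 or KRT31. Shared stretches were counted among GENCODE 29 keratin transcripts. Promoter windows came from RefSeq and were aligned with Biopython 1.88. Python 3.11.15 was used with numpy 2.4.6, pandas 2.3.3 and scipy 1.17.1, and figures were drawn with matplotlib 3.10.9.

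Alternatives were other pseudocounts (0.1, 0.5 and 1), no filter, a stricter filter (5 FPKM on average), rescaling with median-of-ratios factors, rescaling to equal read totals, and rules of 1.5-fold and 4-fold.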

Additional observations from a re-analysis of the deposited data

Results flagged for a closer look

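Several keratin genes had a ratio for 1 compound that pointed one way alone and the other way beside the second compound. The difference was not tested, because each group has 1 library. The log2 departure from the product of single ratios measures its size, not whether the direction changed. Counting intervals of both ratios exclude 1 only for KRT32 and KRT80. For every other gene named below at least 1 of them includes 1, so a change of direction is not shown there.

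For CCCP, the ratio with DHA present was below 1 and the ratio without DHA above 1 in 4 genes, counted over the 8 genes and the other hair keratin, epidermal keratin and keratin-associated genes that were measured. KRT32 had 0.314 with DHA and 1.90 without, a departure of -2.59 (-3.67 to -1.52). KRT86 had 0.605 and 1.24, a departure of -1.04 (-1.74 to -0.34). KRTAP1-5 had 0.285 and 2.10 on 2 to 18 reads, a departure of -2.88 (-5.41 to -0.35) that was -1.09 with a pseudocount of 0.5 FPKM and -0.71 with 1. KRT33A had 0.384 and 1.42, and for DHA it had 0.44 with CCCP and 1.63 without, a departure of -1.89 (-3.85 to 0.07). KRT36, KRT83 and KRTAP5-1, all under 1 FPKM with at most 6 reads in any library, had CCCP ratios of 0.499, 0.2 and 0.499 with DHA and 1.94, 1.17 and 2.91 without, and the intervals of their departures include 0.

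KRT16 had a DHA ratio of 0.414 with CCCP and 1.01 without, a departure of -1.28 (-2.0 to -0.57). In the opposite sense, KRT81 had a CCCP ratio of 1.14 with DHA and 0.987 without, a departure of 0.21 (-0.0036 to 0.43). KRT80 had CCCP ratios of 1.16 and 0.882 and DHA ratios of 1.26 and 0.952, with and without the other compound, a departure of 0.40 (0.36 to 0.45).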

How the results depend on the processing

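The counts of the 8 genes at least 2-fold higher stayed within 1.5 times under every alternative but the 4-fold rule, which left 1 gene in each of CCCP against control, DHA against control, combination against CCCP and combination against DHA. The counts lower, whose alternatives were chosen after seeing the data, moved in 2 comparisons: in the combination against CCCP, KRT33B alone became 2 genes with a pseudocount of 0.1, no filter or the 1.5-fold rule and 0 with the 4-fold rule, and in the combination against control 0 became 1 with the 1.5-fold rule. The log2 ratio of KRT34, combination against CCCP, was 2.42 after rescaling to equal totals, beside 2.37 as deposited. That of KRT31, combination against control, was 3.25 with a pseudocount of 1, beside 3.85 without one. The other ratios of KRT34 and KRT31, and the departures of the 8 genes, stayed within their counting intervals with 2 pseudocounts and with equal totals, but those intervals are wide for KRT33A and KRTAP1-5, whose departures of -1.89 and -2.88 were -0.53 and -0.71 with a pseudocount of 1. Rescaling by median of ratios says nothing about stability, since its factor was the same for all 4 libraries. No direction reversed with the other settings.

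Counts over all genes moved more. The stricter filter left 195 genes higher and 299 lower in the combination against control, beside 618 and 744, 60 and 46 with CCCP, beside 439 and 317, and 50 and 6 with DHA, beside 274 and 255. Against CCCP alone it left 119 and 198 in the combination, beside 473 and 676, and against DHA alone 68 and 184, beside 447 and 497. With 1.5-fold, 1517 were higher and 1742 lower in the combination against control, 1073 and 883 with CCCP, and 606 and 568 with DHA. With 4-fold they were 120 and 90, 74 and 46, and 45 and 53. A pseudocount of 1 gave 262 and 178 with CCCP and 176 and 150 with DHA, and no filter gave 501 lower with CCCP and 456 and 431 with DHA. No paired analysis was possible because each group has 1 library, and no setting stands in for replicates.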
